A study of Mus musculus with 14 samples.

Results

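MaLR elements (mammalian apparent LTR retrotransposons) are copies of long terminal repeat retrotransposons scattered through the mouse genome. They were taken here as every listed element whose repeat annotation gives the class LTR and the family MaLR, in a table of RNA levels of transposable elements in the purified chromatoid body and a like table in round spermatids. The chromatoid body table listed 12043 MaLR elements of 94297 transposable elements in all, which is 12.8% of the table. In round spermatids 5006 of 47338 listed elements, or 10.6%, were MaLR. An element was counted once where repeat name and coordinates agreed, and 15910 different MaLR elements were listed in at least 1 of the tables.

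MaLR elements carry no coding capacity of their own for the usual retroviral proteins and are thought to have been copied by the machinery of the related ERVL elements. The MT and ORR1 groups expanded in rodents, whereas MLT1 copies are older and shared with other mammals. Most copies are solitary LTRs, a promoter-bearing repeat left after recombination between both ends of an element, and MT LTRs are known to drive transcripts in oocytes. In male germ cells transposon RNA is held down by PIWI proteins and their piRNAs, part of which gather in the chromatoid body, a perinuclear granule of RNA and protein in round spermatids.

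The study comprised 14 RNA-seq libraries in 9 groups, all from testes of C57BL/6 mice at least 6 weeks old. The chromatoid body values came from an immunoprecipitation with an antibody against MVH, the RNA helicase encoded by Ddx4, abbreviated here MVH IP (3 libraries). By the protocol it was the last step of a purification of crosslinked testis cells that passed through lysate, supernatant, pellet1 and pellet2 (1 library each), whereas its sample label names lysate as the input. Round spermatids were sorted from adult testis (2 libraries, of which 1 was made from RNA above 500 bp). No genetic change is labelled for these groups, and 3 further groups (IgG control, ACR antibody, and round spermatids labelled hetMIWI) were not analysed here. The tables give 1 value per element and condition, in FPKM (fragments counted per length of the element and per total of mapped fragments), pooled over the libraries. There is therefore no replicate error and no test anywhere in these comparisons, and the number of reads behind a value is unknown.

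Both element tables begin at 5 FPKM, and the lowest MaLR value was 5.00 FPKM in each, so an element absent from a table lay below that floor or was left out for another reason. The sorted cells carried the markers of their label: all 12 round spermatid markers were listed in both gene tables, whereas 0 of 12 Sertoli cell markers and 0 of 6 Leydig cell markers were listed in round spermatids. MVH IP, prepared from whole testis cells, listed 4 of the Sertoli markers (Clu the highest at 96.9 FPKM) and 5 of the Leydig markers (Cyp17a1 the highest at 51.0 FPKM). Sox9, a defining Sertoli cell factor, was at 0.772 FPKM in lysate and 2.56 FPKM in MVH IP of a joint table of purification steps. In that table the summed level of the Sertoli markers was 72.1 FPKM in lysate and 337 FPKM in MVH IP. That of the Leydig markers was 303 and 213 FPKM. The Sertoli markers did not move as one. Ctsl (14.6 and 127 FPKM) and Clu (30.0 and 101 FPKM) were the highest of them in MVH IP. Rhox8 (3.03 and 0 FPKM) and Inha (2.42 and 0 FPKM) went the other way, and Amh was at 0 FPKM in both. Of the Sertoli markers with a value there, only Clu, Ctsl and Aard (14.3 FPKM) were above 5 FPKM in lysate. The others were below that level even in lysate, so their absence from round spermatids says little about purity. Of 8 spermatocyte markers, 6 were listed in MVH IP and 5 in round spermatids. In round spermatids these 5 ran from 5.11 FPKM for Sycp1 to 131 FPKM for Syce1. The part of other cell types in the MaLR levels was not tested. In such bulk samples, fewer cells of a type and less RNA per cell cannot be told apart.

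Listed MaLR copies ranged from the floor to very abundant ones. In MVH IP the median MaLR level was 16.0 FPKM (quartiles 8.29 and 42.8), below the median of 17.8 FPKM of all listed elements. In round spermatids the median was 11.5 FPKM (quartiles 7.11 and 23.6), against 12.0 FPKM for all elements. MVH IP held 3948 MaLR elements between 5 and 10 FPKM and 1600 at 100 FPKM or more, which is 13.3% of its MaLR against 16.6% of all its elements. Round spermatids held 2225 between 5 and 10 FPKM and 244 at 100 FPKM or more, 4.87% against 8.48% of all elements. MaLR elements were thus a smaller share of the elements at 100 FPKM or more than of all listed elements in both conditions. They were not lower at every locus length. In MVH IP the medians of MaLR and all elements were 49.4 and 64.9 FPKM under 100 bp, and 19.6 and 17.9 FPKM at 100 bp to under 200 bp. They were 12.3 and 12.9 FPKM at 200 bp to under 400 bp, and 13.9 and 12.6 FPKM at 400 bp or more. In round spermatids MaLR were above all elements only at 400 bp or more (11.8 and 11.4 FPKM).

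Among LTR families, MaLR was the largest in both tables. The ERVK family, which holds the active IAP and ETn elements, had 8416 listed elements in MVH IP and 3293 in round spermatids. ERVL elements, the relatives that MaLR are thought to depend on, numbered 3478 and 1532, and ERV1 elements 2171 and 868. Median levels of these families in MVH IP were 14.8 FPKM for ERVK, 17.1 for ERVL and 16.5 for ERV1, so MaLR stood in the middle of the range.

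By name, the listed MaLR comprised 97 repeat names, of which 89 occurred in both tables and 63 had at least 20 listed elements in one of them. MLT1 was the largest group, with 3285 elements in MVH IP and 1409 in round spermatids. It was followed by MTE (2304 and 1024), MTD (1322 and 438), ORR1D (1096 and 447), ORR1E (997 and 386), ORR1A (895 and 395), MTC (670 and 278), ORR1B (599 and 233) and ORR1C (490 and 239). The youngest MT groups were the least often listed, with 206 and 80 MTB and 134 and 58 MTA elements. MLT1 and MTE together led both tables, with 27.3% and 19.1% of the MaLR in MVH IP and 28.1% and 20.5% in round spermatids.

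**Figure D1:**
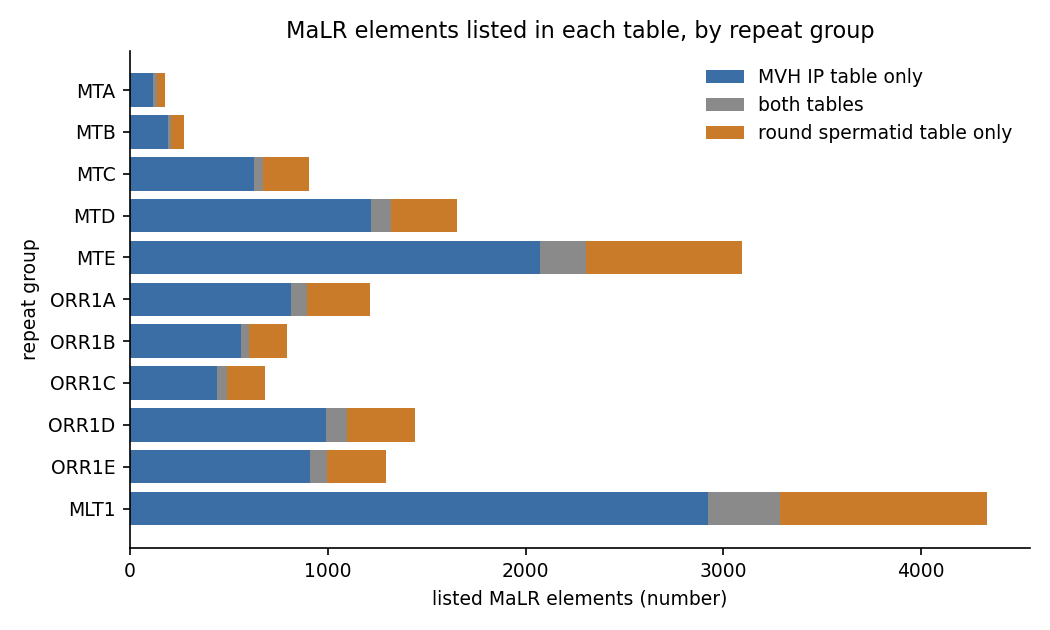
Number of listed MaLR elements (x axis) in each repeat group (y axis), divided into elements listed in the MVH IP table only, in both tables and in the round spermatid table only. MLT1 is the longest bar, with 2925 elements of MVH IP only, 360 of both and 1049 of round spermatids only; MTA is the shortest, with 116, 18 and 40.

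Across groups, MVH IP listed between 2.05 (ORR1C) and 3.02 (MTD) times as many elements as round spermatids. The most frequent single name was MTD, an LTR of rodent origin, with 1231 elements in MVH IP and 408 in round spermatids. Among the 44 names with at least 20 elements in both tables, the ratio of listed elements ran from 1.09 for MLT1N2 (25 and 23 elements) to 3.65 for MLT1F1 (73 and 20). Every one of these 44 names thus had more listed elements in MVH IP than in round spermatids. The whole MVH IP table was also longer, with 94297 elements of all families against 47338, so this is not particular to MaLR.

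Names ending in -int stand for the internal part between the LTRs. They made up 1115 of the MVH IP elements (9.26%) and 426 of those from round spermatids (8.51%), and all others were LTRs. Internal parts were longer, with a median of 502 bp in MVH IP against 242 bp for LTRs. Their levels were close to those of LTRs: the median was 15.1 against 16.0 FPKM in MVH IP and 11.4 against 11.5 FPKM in round spermatids. LTR and internal RNA were listed at like levels.

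The groups differed little in level compared with the spread inside each of them. In MVH IP the medians of the 11 named groups ran from 12.6 FPKM for MTB to 18.8 FPKM for MLT1, with MTE next highest at 18.1 FPKM. In round spermatids they ran from 8.94 FPKM for MTA to 12.6 FPKM for MTE, and MLT1 stood at 10.5 FPKM, the third lowest. MLT1 was thus the highest group in the purified granule and among the lowest in the cells. MLT1 loci were also the shortest, with a median of 173 bp in MVH IP and 123 bp in round spermatids. Among loci of 200 bp or more, the MVH IP median of MLT1 was 13.6 FPKM, below the 14.2 of MTE and the 14.1 of ORR1C, so MLT1 was not at the top for longer loci.

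**Figure D2:**
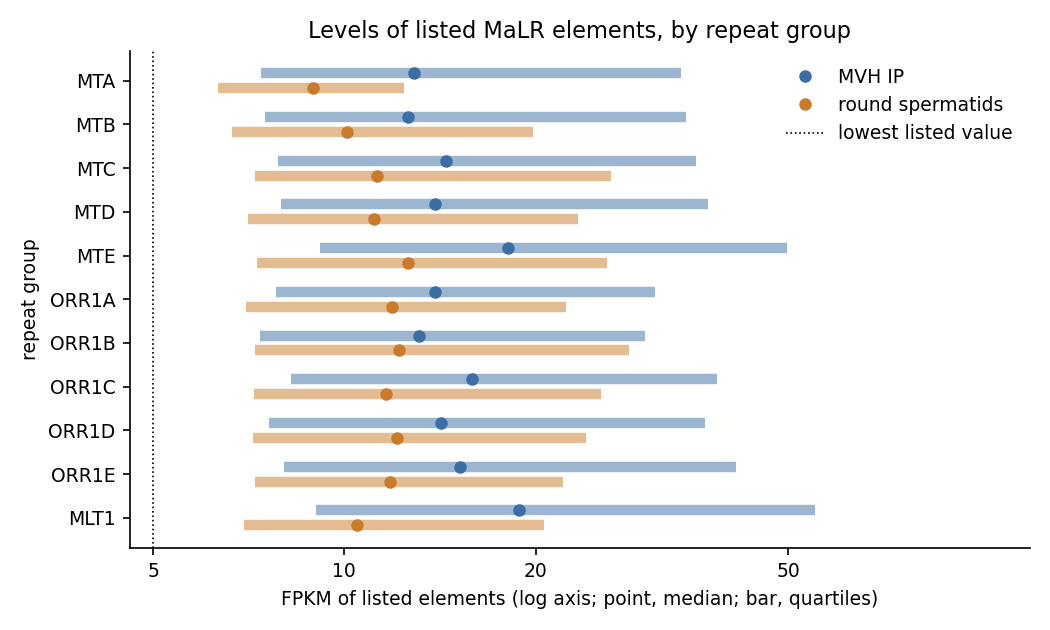
Level of listed MaLR elements in FPKM (x axis, log scale) for each repeat group (y axis); points are medians and bars the quartiles, for each of the tables, and the dotted line marks the lowest listed value. The MVH IP median lies to the right of the round spermatid median in each of the 11 groups, and the bars overlap in all of them.

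Single names followed the same pattern. Of the 44 names with at least 20 elements in both tables, 41 had the higher median in MVH IP, and the other 3 were MTB_Mm (10.9 against 11.4 FPKM), ORR1C1 (13.9 and 14.7) and ORR1B1 (11.7 and 12.2). MLT1J2 had the highest median in MVH IP, 40.7 FPKM, and stood at 10.3 FPKM in round spermatids. MTE2b had the highest median in round spermatids, 15.8 FPKM, against 16.6 FPKM in MVH IP. Since the tables were scaled apart and list different elements, these medians describe what was listed and not a change of the same copies.

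The loci differed in length between the conditions. The median listed MaLR locus was 257 bp in MVH IP and 138 bp in round spermatids, and loci under 200 bp made up 39.4% and 64.9% of the MaLR. Over all elements the shares under 200 bp were 61.0% and 79.3%, so MaLR loci were longer than most in both tables. Loci of more than 1000 bp, longer than a single LTR, numbered 818 in MVH IP and 307 in round spermatids. One library of the round spermatid pool was made from RNA above 500 bp, and its part in these lengths was not tested.

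Many short elements shared exactly the same value. A value was called recurring where another element of the same locus length in the same table, of any family, held the identical FPKM (tolerance 0). This was so for 20.6% of MaLR elements in MVH IP and 35.9% in round spermatids, beside 25.9% and 37.6% of all elements. Among loci under 200 bp the MaLR shares were 40.5% and 54.5%, beside 38.0% and 47.0%. Among longer loci they were 7.75% and 1.42%, beside 6.79% and 1.78%. Recurring values are thus not particular to MaLR. At a locus length of 100 bp, for instance, the 343 elements of round spermatids (46 of them MaLR) held 137 different values, and 8.55 FPKM alone was given for 57 elements. In MVH IP the 402 elements of that length held 279 different values, and the most frequent was given for 10 elements. FPKM of low, short elements therefore came in few distinct steps, above all in round spermatids.

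**Figure D3:**
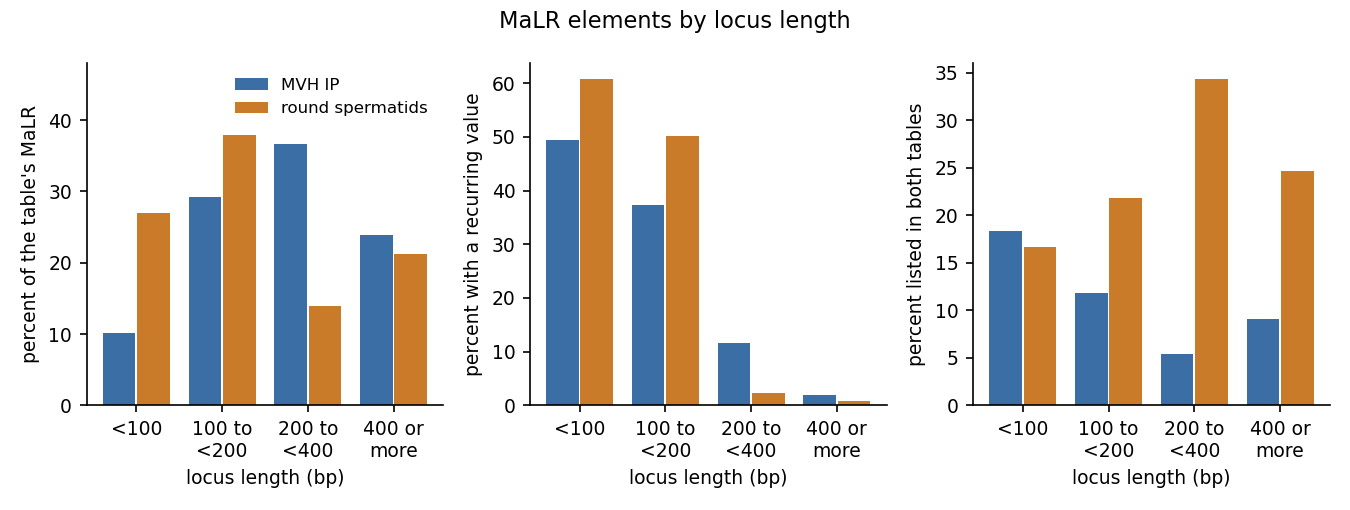
MaLR elements by locus length in bp (x axes), with one colour per table: percent of the table's MaLR in each length class (left), percent of each class with a value that recurs exactly at the same length (middle) and percent of each class listed in both tables (right). Recurring values fall from 49.5% of MVH IP and 60.7% of round spermatid elements under 100 bp to 1.84% and 0.846% at 400 bp or more.

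The overlap between the conditions was small. Only 1139 MaLR elements were listed in both tables, which is 9.46% of those in MVH IP and 22.8% of those in round spermatids; 10904 were listed in MVH IP alone and 3867 in round spermatids alone. Over all elements 12057 were in both, 12.8% and 25.5%. The shares were 14.2% and 36.2% for ERVK, 10.4% and 23.6% for ERVL, and 10.9% and 27.3% for ERV1. No test compares these shares, because copies are not replicates of a condition.

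Abundant MVH IP elements were those most often found in round spermatids too. In MVH IP the shared proportion was 2.25% of the MaLR at 5 to 10 FPKM, 4.39% at 10 to 20, 9.47% at 20 to 100 and 36.4% at 100 FPKM or more. In round spermatids it moved only from 20.8% at 5 to 10 FPKM to 31.1% at 100 FPKM or more. All elements at 100 FPKM or more were shared at 42.6% in MVH IP and 56.9% in round spermatids, above MaLR in both tables. In round spermatids, elements with a recurring value were shared at 12.8% and the others at 28.3%. In MVH IP those shares were 8.77% and 9.64%.

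Shared MaLR copies were mostly at a higher FPKM in the purified chromatoid body. Their median was 103 FPKM in MVH IP and 12.8 FPKM in round spermatids. On the log2(FPKM + 1) scale, which understates changes of low elements, 865 of 1139 shared MaLR were at least 2-fold higher in MVH IP (75.9%), beside 71.7% of all 12057 shared elements. At least 2-fold lower were 60 (5.27%), beside 7.32% of all shared elements, and 214 differed by less. At a 4-fold threshold 687 were higher (60.3%, beside 56.9% of all) and 23 lower (2.02%, beside 3.28%). The median log2 ratio was 2.69 for MaLR (quartiles 1.09 and 4.28) and 2.42 for all shared elements. When ratios were centred on that median of all shared elements, 434 MaLR were at least 2-fold higher and 334 at least 2-fold lower, so most of the shift was common to all elements. The MaLR median lay 0.27 above that of all shared elements on the log2 scale, a small distance beside the quartiles of either, and above ERVK (2.30) but below ERVL (2.84) and ERV1 (2.77).

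**Figure D4:**
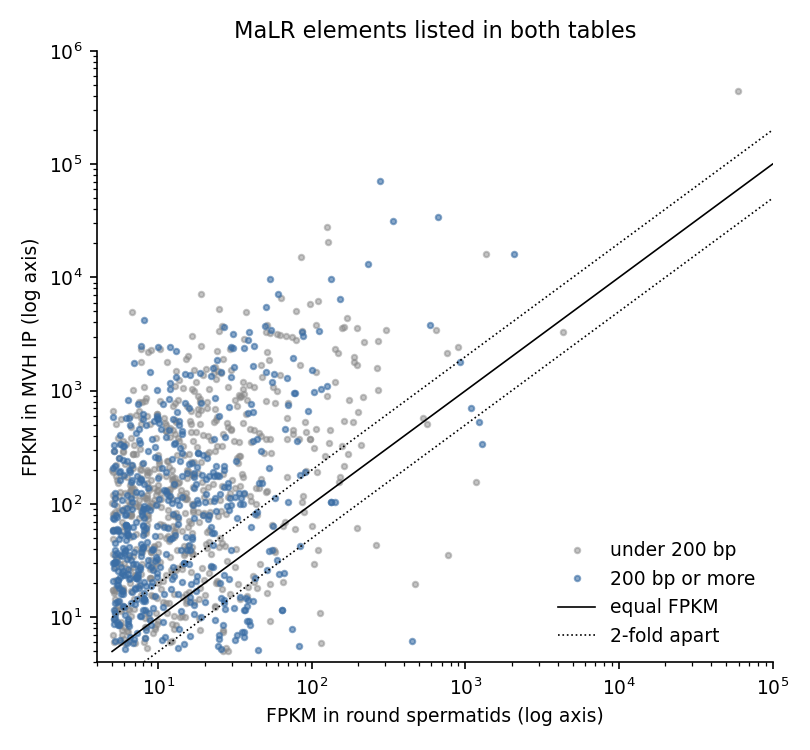
Each point is 1 of the 1139 MaLR elements listed in both tables, by its FPKM in round spermatids (x axis, log scale) and in MVH IP (y axis, log scale); the solid line marks equal FPKM and the dotted lines a 2-fold difference. Most points lie above the upper dotted line, and the point at the top right is MLT1F1 at 59251 and 444510 FPKM.

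The difference from round spermatids varied with locus length. Shared MaLR under 200 bp had a median log2 ratio of 2.96, with 497 of 639 at least 2-fold higher and 24 lower. Those of 200 bp or more had a median of 2.37, with 368 of 500 higher and 36 lower. This was just under the 2.42 of all shared elements of any length. LTRs had a median of 2.74 (796 of 1040 higher, 52 lower) and internal parts 2.33 (69 of 99 higher, 8 lower). All shared elements were not divided by length or part, so these counts have no like background and cannot be read as particular to MaLR. The levels of shared MaLR in the tables had a rank correlation of 0.37 across elements, against 0.50 for all shared elements, a description over copies that share libraries and length.

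The shared copies were ordered by repeat group. The median log2 ratio was highest for MTA at 3.10 (15 of 18 at least 2-fold higher, 0 lower), MLT1 at 3.05 (284 of 360 higher, 11 lower) and MTD at 2.95 (81 of 105 higher, 3 lower). MTE at 2.76, MTC at 2.70, MTB at 2.44 and ORR1E at 2.43 stood between. The other ORR1 groups were lower, with 2.19 for ORR1C (38 of 49 higher, 1 lower), 2.11 for ORR1D (73 of 104 higher, 12 lower) and 2.10 for ORR1A (56 of 79 higher, 7 lower). ORR1B had the lowest median, 1.15, with 21 of 38 higher and 5 lower, and was the group whose shared copies had the highest round spermatid median. Neighbours in this order lay closer together than the quartiles within any group, which for ORR1B were -0.21 and 2.52.

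At least 20 shared copies were found for 19 repeat names. Among these, ORR1B1 had the lowest median log2 ratio at 1.09 (12 of 21 higher, 3 lower) and MLT1D the highest at 3.24 (25 of 30 higher, 2 lower). The most frequent shared names were MTD with 96 copies (76 higher, 2 lower), MTEa with 95 (79 higher, 4 lower) and ORR1E with 89 (65 higher, 6 lower). MLT1A1, MLT1A0 and ORR1C2 had 0 copies at least 2-fold lower among 46, 30 and 33. All 19 names had a median above 0, as had all shared elements together (2.42). ORR1B1, MTE2a, ORR1A2, ORR1D2, MLT1C and MLT1A0 lay below 2.42, and the other names above it.

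A single short MLT1F1 copy held much of the summed MaLR FPKM. It lies in mm9 at chrX:22249782-22249945, 164 bp long and 209 kb from the nearest gene locus, that of 1700023I07Rik. Its level was 444510 FPKM in MVH IP and 59251 FPKM in round spermatids, the highest of all elements in both tables. It made up 24.5% of the summed MaLR FPKM of MVH IP, and 28.4% of that of round spermatids. The 1 other element listed within 5 kb in MVH IP was at 12.0 FPKM, and none was listed there in round spermatids. The other MLT1F1 copies were unremarkable, with a median for the name of 14.0 FPKM in MVH IP and 9.03 FPKM in round spermatids. FPKM is counted per length of the element, so summed FPKM is not an amount of RNA. Loci under 200 bp were 123 of the 203 MaLR at 1000 FPKM or more in MVH IP, beside 2282 of 2716 of all elements. In round spermatids they were 7 of 11, beside 604 of 656. The part of short length in these values was not tested.

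The next highest copies in MVH IP were also present in round spermatids, at far lower values. An MTE2a copy at chr6:22384113-22384398 had 71381 FPKM in MVH IP and 278 FPKM in round spermatids. An MLT1C copy at chr8:120607968-120608543, 199 kb from Cdh13, had 34282 and 667 FPKM. An MTD copy at chr4:139424035-139424404, 35.2 kb from the muscle transcription factor gene Pax7, had 31172 and 336 FPKM. The fifth was a 52 bp MLT1B locus at chr2:101495881-101495932, 6.19 kb from the recombinase gene Rag1, with 27957 and 126 FPKM. All of these lay outside annotated gene loci, and the highest other element within 5 kb of them in MVH IP was at most 359 FPKM.

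In round spermatids the second highest MaLR was a 60 bp MTEa copy at chr12:84645989-84646048, within the locus of Dpf3, which encodes a subunit of the BAF chromatin remodelling complex. It was at 4291 FPKM in round spermatids and 3277 FPKM in MVH IP, so it was not higher in MVH IP. The Dpf3 gene itself was at 14.0 FPKM in round spermatids and 166 FPKM in MVH IP in the gene tables, and thus higher in MVH IP. A long MTB locus of 1600 bp at chr17:91800511-91802110 was at 2073 FPKM in round spermatids and 16239 FPKM in MVH IP. A 54 bp MTEa locus at chr2:179064158-179064211 was at 1359 and 16247 FPKM. The strand of elements is not given, so an element in a gene locus cannot be told apart from RNA of the gene.

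Elements listed in 1 table alone reached lower peaks. The highest of MVH IP alone were an MTC copy at chr2:22922727-22922879 with 14573 FPKM, 0.841 kb from Acbd5, an MTC copy at chrX:75858301-75858957 with 12449 FPKM and an ORR1E copy at chr10:112174341-112175495 with 9682 FPKM. The highest of round spermatids alone were very short. An ORR1C2 locus of 32 bp at chr5:43593461-43593492, within the locus of Cpeb2, a gene for an RNA-binding protein of translational control, had 1417 FPKM. An MTC locus of 24 bp at chr1:29057180-29057203 had 1239 FPKM, and an MTEa locus of 27 bp at chr11:13197150-13197176 had 1142 FPKM. The value of that MTEa locus was identical to that of 1 other element of the same length.

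Among shared loci of at least 200 bp, the largest difference towards MVH IP was an MTD copy at chr7:30338578-30338896. It had 4234 FPKM in MVH IP and 8.09 FPKM in round spermatids (log2 ratio 8.86), and it lay in a stretch where 8 other elements were listed within 5 kb in MVH IP, up to 3935 FPKM. An MLT1H2 copy at chr1:63982922-63983380 followed with 2485 and 7.72 FPKM (8.15), then the MTE2a copy on chromosome 6 named above. An ORR1C2 copy at chr12:13082066-13082906 had 2429 and 9.93 FPKM (7.80), and an MTEa copy at chr11:88678427-88678972, 13.1 kb from the gene of the mitochondrial anchoring protein Akap1, had 1744 and 6.99 FPKM (7.77). In each of these 5 loci the round spermatid value was far below that of MVH IP, and in 4 of them it was under 10 FPKM, close to the floor.

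Towards round spermatids the differences were smaller, and the MVH IP values of the 5 named loci lay between 5.14 and 11.6 FPKM. An MLT1B copy at chr10:111665118-111665749 had 6.19 FPKM in MVH IP and 450.0 FPKM in round spermatids (log2 ratio -5.97), where the round spermatid value is the mean of 2 deposited rows of 56.5 and 844 FPKM. An MLT1D copy at chr4:98543643-98544216 had 5.64 and 82.8 FPKM (-3.66). An ORR1A2 copy at chr18:63854097-63854950, 2.08 kb from the thioredoxin-like gene Txnl1, had 7.88 and 74.4 FPKM (-3.09). ORR1C1 at chr3:57216064-57216682 (5.14 and 44.5 FPKM, -2.89) and ORR1D1 at chr8:19757768-19758115 (11.6 and 63.6 FPKM, -2.36) completed the set. The MVH IP value of that ORR1D1 copy was identical to that of 3 other elements of its length.

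Abundant MaLR loci had no listed neighbour, or a much lower one, in most cases, as did abundant elements of all families. Of the 203 MaLR elements at 1000 FPKM or more in MVH IP, 79 had no other listed element within 5 kb (38.9%, beside 42.5% of all elements at that level). In 87 of the other 124 the highest neighbour was below 10% of the element's own level (70.2%, beside 79.2%). In round spermatids 7 of 11 had no neighbour (63.6%, beside 67.1% of all elements at that level). In the other 4 the highest neighbour was below 10%, beside 75.9% of all such elements with a neighbour. Isolation was thus not particular to MaLR.

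Listed MaLR lay almost wholly outside annotated genes. The 21905 gene loci of the joint table cover 35.6% of the chromosomes, but only 128 MaLR of MVH IP (1.06%) and 70 of round spermatids (1.40%) lay inside one. Over all elements the shares were 1.23% and 1.72%. Within 5 kb of a gene locus or inside it lay 11.0% of the MaLR in MVH IP and 14.9% in round spermatids, beside 14.8% and 20.6% of all elements. Overlap with a piRNA cluster was found for 1 MaLR of round spermatids and 0 of MVH IP, and for no element of any other family in either table. A separate deposited table of the lysate, whose score has no fixed unit, placed 1730 of its 3246 MaLR (53.3%) inside gene loci. Among these 3246 lysate MaLR, 84 overlapped a piRNA cluster, beside 537 of all 22882 lysate elements. The way elements were picked for each table was not described in the material used. The low MVH IP and round spermatid numbers in genes and in piRNA clusters therefore describe the tables. They cannot be read as absence of MaLR RNA in introns, UTRs or piRNA clusters.

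Those inside genes fell into 87 distinct loci, of which 49 held 1 MaLR and 8 held at least 5. These loci had a median length of 88.0 kb, against 16.8 kb for all gene loci. The locus of the protocadherin gene clusters on chromosome 18 and that of Rbfox1, a neuronal splicing regulator, on chromosome 16 held 10 each. Loci named 4921510H08Rik, Ppp6r2 (a regulatory subunit of protein phosphatase 6) and Tff1 held 7 each. The levels of these copies ran from 5.23 FPKM to 224 FPKM in MVH IP across the 5 loci.

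Beside genes, MaLR showed no strong side. Near listed genes, 265 MVH IP elements lay only downstream within 5 kb and 293 only upstream, with medians of 18.2 and 16.6 FPKM against 15.9 FPKM for those near no listed gene. In round spermatids 106 lay only downstream and 163 only upstream, with medians of 12.1 and 12.5 FPKM. All elements of round spermatids also lay more often upstream, 2252 against 1602. Levels beside genes were thus close to those elsewhere.

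On chromosome X lay 3.63% of the MaLR in MVH IP and 3.02% in round spermatids, beside 4.47% and 3.49% of all elements. Chromosome 1 held the most MaLR in MVH IP (1026) and chromosome 5 in round spermatids (351). When elements within 10 kb of each other were joined, MVH IP gave 10476 units, of which 9213 were single elements and 21 held at least 5. Round spermatids gave 4397 units, with 3945 single elements and 11 of at least 5. The positions of listed MaLR were therefore dispersed in both conditions. This describes loci and not their levels, since much of the summed FPKM lay in the single MLT1F1 copy named above.

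Some dense stretches overlapped transcripts that the authors had assembled without a gene symbol. In the largest unit of round spermatids, at chr5:117437415-117448252, all 10 elements overlapped an assembled transcript named Cuff.3615. In the largest of MVH IP, at chr19:60684331-60704035, 2 of 9 elements overlapped an assembled transcript, Cuff.2611. In a round spermatid unit at chr10:110323130-110335326, 4 of 9 elements overlapped Cuff.641. In all, 302 of 4922 assembled transcripts (6.14%) overlapped a listed MaLR: 200 through MVH IP elements, 185 through round spermatid elements and 83 through both. The MaLR on them numbered 233 in MVH IP (1.93%, beside 1.41% of all elements) and 237 in round spermatids (4.73%, beside 4.06%). In MVH IP their median was 35.0 FPKM, above the 16.0 FPKM of all its MaLR, and in round spermatids 14.7 FPKM. Elements of all families on assembled transcripts had medians of 56.1 and 16.1 FPKM, also above the 17.8 and 12.0 FPKM of all elements.

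These transcripts could be followed through the purification, because the joint table gives lysate, supernatant, pellet1, pellet2 and MVH IP on 1 scale. All steps are compared with the same lysate library, so the comparisons share it. At least 2-fold higher than lysate in the supernatant were 14 of 293 (4.78%, beside 8.93% of all assembled transcripts), and 14 were lower (4.78%, beside 4.25%). In pellet1, 72 of 288 were higher (beside 23.0% of all) and 50 lower (17.4%, beside 21.5%). In pellet2, 71 of 285 were higher (24.9%, beside 26.9%) and 19 lower (6.67%, beside 11.0%). In MVH IP, 128 of 259 were higher (49.4%, beside 59.5%) and 56 lower (21.6%, beside 9.93%). Among the transcripts compared, the share below lysate in MVH IP was the one that stood farthest above its background. Transcripts at 0 FPKM in a step or in lysate are left out of its count. In MVH IP 36 of the 302 were at 0 FPKM, beside 856 of all 4922 assembled transcripts. These could not be counted as lower, so the distance between the shares below lysate depends on this rule.

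That count joins transcripts of unlike origin. For the 117 that overlap MVH IP elements alone, the rule itself needs element RNA in MVH IP, and 57 of 99 compared were higher than lysate and 18 lower. The 102 that overlap round spermatid elements alone had 27 of 83 higher and 23 lower, with a median log2 ratio of 0.25, and here the rule excludes MaLR listed in MVH IP. The 83 with elements of both tables had 44 of 77 higher and 15 lower. The median level in MVH IP was 67.1, 28.9 and 64.1 FPKM in these sets, whereas their lysate medians lay close together at 27.8, 27.6 and 29.0 FPKM. Since MVH IP listing formed the sets, their difference in MVH IP is a description only.

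**Figure D5:**
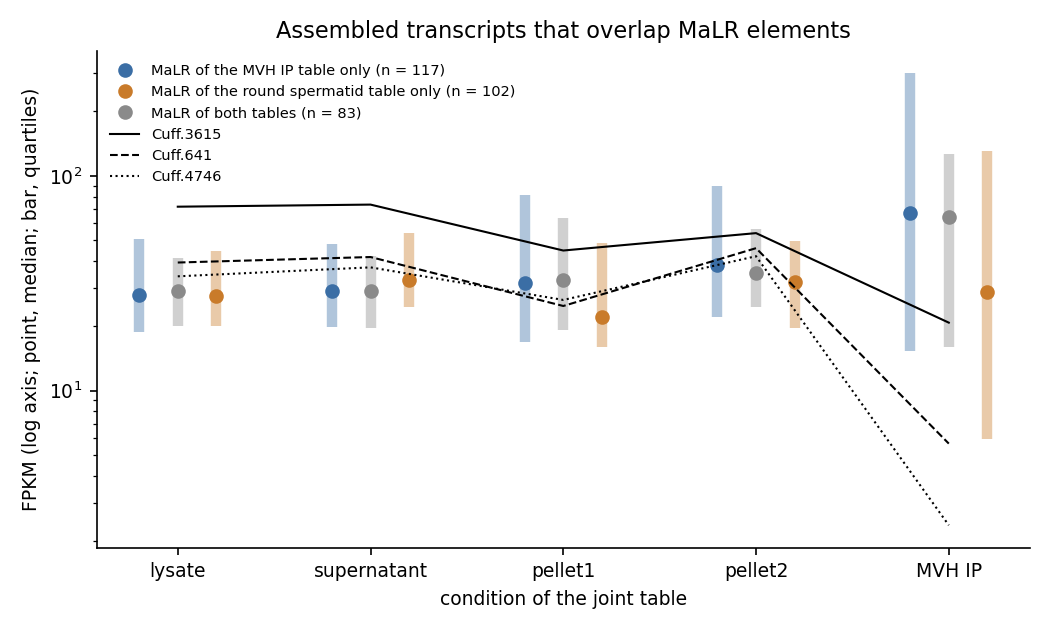
FPKM (y axis, log scale) of assembled transcripts that overlap MaLR elements in the 5 conditions of the joint table (x axis); points are medians and bars quartiles of the sets that overlap elements of the MVH IP table only, of the round spermatid table only or of both, and lines show 3 transcripts. The sets, which were formed by listing in MVH IP and round spermatids, have like medians in lysate, and Cuff.3615, Cuff.641 and Cuff.4746 end in MVH IP at 20.7, 5.66 and 2.36 FPKM.

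Most transcripts with at least 3 round spermatid MaLR were lower in MVH IP than in lysate. Of the 10 that overlap at least 3 such elements, 9 could be compared, and 6 were at least 2-fold below lysate and 1 above it, with a median log2 ratio of -2.06; this set was formed after the values were seen. Cuff.3615, at chr5:117439680-117454642 and 87.0 kb from Suds3, overlapped 10 round spermatid and 4 MVH IP elements of the MT, ORR1 and MLT1 groups. It was at 71.8 FPKM in lysate, at 73.5 after clearing in the supernatant, at 44.9 and 54.1 in the first and second pellet, and at 20.7 in MVH IP. Cuff.641, at chr10:110308245-110330156, was at 39.5, 41.9, 24.8, 46.0 and 5.66 FPKM in the same order. Cuff.4746, at chr9:73088354-73099873, was at 34.0, 37.5, 26.4, 42.2 and 2.36 FPKM. All 3 were lowest in MVH IP.

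Others went the opposite way. Cuff.676, at chr10:126225926-126231430, overlapped 4 round spermatid MaLR of the names MLT1K and ORR1C2, and was at 29.0, 20.2, 18.8, 21.6 and 79.3 FPKM from lysate to MVH IP. Cuff.4031, which carries the MTD copy on chromosome 7 with the largest ratio, was at 22.2 FPKM in lysate and 97.5 FPKM in MVH IP. Cuff.1738, in contrast, was at 11.0 FPKM in lysate and 0.225 FPKM in MVH IP although the MTD element on it was listed at 5278 FPKM in the MVH IP element table. Element and transcript values can therefore disagree at 1 place, and the deposited files do not say which reads each of them counted.

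Few of the listed MaLR were in the separate lysate table. Of the MVH IP elements 368 (3.06%) overlapped a MaLR listed there, of the round spermatid elements 291 (5.81%), and of the shared ones 142 (12.5%). The MVH IP median of overlapping elements was 27.6 FPKM, against 15.7 FPKM for the others. Among shared elements the order was the reverse, with 85.9 FPKM for overlapping ones and 108 FPKM for the others. Because that table uses another scale and another choice of elements, no level was compared with it. The overlap of all elements with the lysate table was not counted. The low shares therefore describe the tables and cannot be read as particular to MaLR.

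Genes of transposon silencing were themselves found in the chromatoid body values. Of 30 such genes, 18 were listed in MVH IP, 11 in round spermatids and 10 in both. The share listed over all genes was not counted. A gene not listed was not always low: Tdrd6 and Tdrd1, listed in neither, were at 96.1 and 50.1 FPKM in MVH IP of the joint table. Others not listed were low there, such as Piwil4 at 0 and Morc1 at 1.84 FPKM. Of these 10, 8 were at least 2-fold higher in MVH IP and 0 lower, beside 75.4% and 0.545% of the 3855 genes listed in both. The list's median log2 ratio was 1.94 and that of all such genes 1.85, so the silencing genes followed the genes at large. Tdrd7, which encodes a tudor protein of the chromatoid body, was at 878 FPKM in MVH IP and 217 FPKM in round spermatids. Piwil1, which encodes the PIWI protein MIWI, was at 36.9 and 5.01 FPKM, the latter at the floor. Mael, an RNA-binding factor of the piRNA pathway, was at 276 and 249 FPKM. Ddx4, the gene of the MVH protein itself, was at 250 and 119 FPKM. On the common scale of the joint table Piwil1 was at 106 FPKM in lysate and 36.8 FPKM in MVH IP, Mael at 341 and 329 FPKM, and Tdrd7 at 138 and 261 FPKM.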

How the data were processed

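Per the submitters' processing notes, the authors used TopHat and Cuffdiff with the mouse build mm9; tool versions are not given there. The authors deposited FPKM values for elements, genes and assembled transcripts, as the file headers name them, and each is 1 value pooled over the libraries of a condition (the joint table names conditions only, and its mvhIP is read as all 3 MVH IP libraries), so no test, standard deviation or interval between libraries was possible. How tables were scaled, and whether strand was used, is likewise not given. The deposited lysate element values were kept as a score and used only for presence and place. Whether the libraries of a condition came from separate animals is not labelled.

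MaLR rows were read with pandas 2.3.3 (Python 3.11.15, scipy 1.17.1), and rows of 1 element (60 elements in MVH IP, 31 in round spermatids) were averaged. Starts of the MVH IP and round spermatid tables count from 0 and were shifted by 1, so coordinates are mm9 counted from 1. Elements listed in both tables were compared as the log2 ratio of (FPKM + 1), and called higher or lower at 2-fold; the step was tested on simulated data. Assembled transcripts needed a mean of at least 1 FPKM and no value at 0. Members, gene lists and comparisons were chosen with earlier results of these data known. Named elements were the 5 highest of each table, the 5 largest ratios in each direction among shared loci of at least 200 bp and the 3 highest of each table alone; the named repeat names had at least 20 elements, and assembled transcripts were chosen after their values were seen. Alternatives were other pseudocounts (0.1 and 10 FPKM), level, length and place filters, centring, 4-fold calls and joining of neighbours. The number of per-sample columns of another kind that were not used is 1. Element sequences were not used here.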

Additional observations from a re-analysis of the deposited data

How the results depend on the processing

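No paired analysis was possible because the deposited values are pooled over libraries and come from no test, and for the same reason no library could be left out. The shared MaLR at least 2-fold higher in MVH IP numbered 865 of 1139 (75.9%). They were 368 of 500 (73.6%) among loci of at least 200 bp, and 434 of 1139 (38.1%) after centring on all shared elements. Those at least 2-fold lower numbered 60 of 1139 (5.27%), but 334 (29.3%) after centring and 23 (2.02%) at a 4-fold threshold. They were 36 of 500 (7.2%) among loci of at least 200 bp and 38 of 796 (4.77%) without recurring values. The median log2 ratio of the shared MaLR, 2.69, became 2.09 with a pseudocount of 10 FPKM and 3.38 with a mean of at least 20 FPKM. It was 2.37 for loci of at least 200 bp, 0.27 after centring and 2.93 without recurring values. It was above 0 in all of these, but all shared elements had a median of 2.42, so this sign is not particular to MaLR. Leaving out recurring values, taking the highest row of an element and leaving out unplaced sequences were added after seeing the data. The MaLR share of listed elements became 19.9% (MVH IP) and 18.0% (round spermatids) for loci of at least 200 bp, and 11.8% and 9.55% at 20 FPKM or more. MaLR wholly inside a gene locus widened by 5 kb were 10.2% and 14.1%. Elements listed in both tables were 1139 of the 5006 MaLR of round spermatids (22.8%). They were 337 of 1459 (23.1%) at 20 FPKM or more in each, and 500 of 1758 (28.4%) at 200 bp or more. The other 29 alternative values stayed within 1.5 times the count, or within the interval of the median or share. Low FPKM of short loci come in few steps, so small differences among them are not resolved, and the read depth is unknown.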
